A study of Mus musculus with 28 samples.

Results

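Control mTEChi and control mTEClo, 2 subsets of medullary thymic epithelial cells (mTECs) sorted from mouse thymus, were compared over all genes of a bulk RNA-seq count table. The comparison used the 4 libraries named as control mTEChi and the 4 named as control mTEClo, 8 of the 28 libraries of the series, chosen by their labels and not by any measured value. All 8 came from C57BL/6 mice of genotype Foxn1cre(+/-)Hnf4a(fl/+)Hnf4g(+/-), so that these controls carry Foxn1-Cre, a driver active in thymic epithelium, 1 floxed allele of Hnf4a and 1 disrupted allele of Hnf4g. The mTEClo libraries are labelled post-Aire mTEClo, and the mTEChi libraries carry no such addition. The sources used here give neither age nor sex, nor the surface markers of the 2 sorting gates. The series also holds double-mutant libraries of both subsets (Foxn1cre(+/-)Hnf4a(fl/fl)Hnf4g(-/-), 4 mTEChi and 4 mTEClo), which entered the statistical fit and are used once below as a second set of libraries. All mTEChi libraries belong to a later block of sample records than all mTEClo libraries, so the sorted subset and the submission cannot be told apart, in any result below.

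Each library was made from 1000 cells, sorted after magnetic removal of CD45+ blood cells and sorted again where the yield allowed; which libraries were sorted again is not stated. In bulk samples of this kind, fewer cells of a type and less RNA per cell cannot be told apart. mTECs transcribe genes of many peripheral tissues, and the peptides are shown to developing T cells to remove or divert those that react to self. The terms hi and lo refer by convention to surface MHC class II, often together with CD80. The nuclear protein AIRE drives much of the peripheral-tissue transcription in mTEChi. mTEClo hold immature cells and cells past the Aire stage, among them cells that resemble tuft, microfold, keratinised, ciliated, muscle or secretory cells of other organs and are called mimetic cells.

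Total counts were 5344084 to 8342583 in control mTEChi and 6407618 to 7445874 in control mTEClo. Pearson's correlations of log2 CPM over genes lay between 0.927 and 0.941 among mTEChi libraries, between 0.939 and 0.947 among mTEClo libraries, and between 0.798 and 0.862 across the subsets; genes are not independent replicates. Mitochondrial genes took 1.43 to 2.06% of the counts in mTEChi and 1.62 to 1.68% in mTEClo. The share of the repeat-like gene model Gm10800 was 0.588 to 0.740% in mTEChi and 1.01 to 1.38% in mTEClo, with no overlap (exact permutation test, two-sided, p = 0.0286, the smallest that 4 against 4 libraries allow). The 50 most abundant genes of each library took 16.5 to 17.3% in mTEChi and 13.3 to 14.1% in mTEClo, also without overlap (exact permutation p = 0.0286). The part of these shares in the gene results was not tested.

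The genes targeted in the study, which encode the nuclear receptors HNF4A and HNF4G, did not pass the test between the subsets. Hnf4a was at 3.02, 6.78, 1.05 and 7.65 CPM in control mTEChi, against 2.31, 3.74, 5.76 and 7.06 CPM in control mTEClo. Hnf4g was at 22.8, 15.8, 20.3 and 23.2 CPM in control mTEChi, against 9.25, 13.2, 16.1 and 13.1 CPM in control mTEClo. The 2 subsets overlapped for both genes. Their log2 fold changes (mTEChi over mTEClo, as everywhere below) were -0.02 (SE 0.55) and 0.67 (SE 0.32). Without the position of the deletions, gene-wide counts are no check of a heterozygous genotype.

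The labels fitted the genes that define the subsets. Aire (GENCODE M21 on GRCm38, chromosome 10, 78030022 to 78043610) was at 1387, 1728, 2267 and 1571 CPM in control mTEChi, against 209.8, 417, 447 and 565 CPM in control mTEClo. The lowest mTEChi library lay above the highest mTEClo library, and the log2 fold change was 2.08 (SE 0.25, adjusted p = 2.91e-06 by edgeR). Aire was thus still measured in every mTEClo library, lowest in replicate 1 and highest in replicate 4. Epithelial identity genes were present in both subsets, with the cell-adhesion gene Epcam at 781 ± 81.4 CPM in mTEChi and 1107 ± 48.4 CPM in mTEClo (mean ± SD, n = 4 each, as for all such pairs) and the simple-epithelium keratin gene Krt8 at 1284 ± 71 CPM in mTEChi and 1994 ± 28.9 CPM in mTEClo.

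At an adjusted p under 0.05, 4496 genes rose (22.4%) and 4125 fell (20.5%) in mTEChi out of 20095 that entered the test, 42.9% together. With a log2 fold change over 1 in size as well, 3371 genes (16.8%) were higher and 2008 (9.99%) lower. For 40.6% of all genes tested the 4 mTEChi and the 4 mTEClo values did not overlap. Among called genes the changes were larger upwards than downwards. The median log2 fold change was 1.70 among the higher genes and -0.97 among the lower ones, against 0.039 over all genes tested. The higher and lower genes were not matched for level: 1126 higher and 449 lower genes had a mean of 1 to 5 CPM. A log2 fold change over 3 was reached by 692 higher genes, and 306 lower genes went under -3. Among the higher genes 44 had no read in any mTEClo library, and among the lower genes 8 had none in any mTEChi library.

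**Figure D1:**
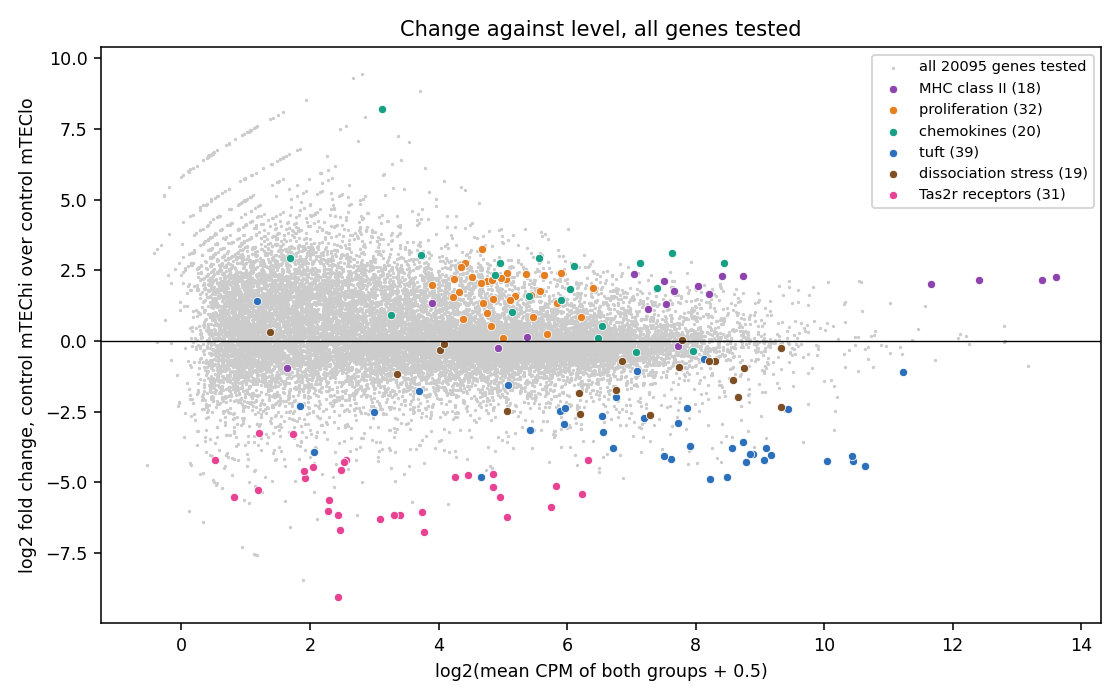
Log2 fold change of control mTEChi over control mTEClo (vertical axis) against the log2 of the mean CPM of both groups plus 0.5 (horizontal axis), 1 point per gene tested, with 5 gene lists and the Tas2r receptors in colour. Tuft genes and Tas2r receptors lie below 0 apart from 1 tuft gene, while most MHC class II, proliferation and chemokine genes lie above it.

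Low genes went up more often than down, and abundant genes the reverse. Of 5540 genes with a mean of 1 to 5 CPM over the 8 libraries, 20.3% were higher and 8.10% lower in mTEChi. Of 2146 genes over 100 CPM, 26% were higher and 36.9% lower. The number of genes at 1 CPM or more was 19719 to 20266 in mTEChi and 17829 to 18747 in mTEClo, without overlap (exact permutation p = 0.0286). Genes with at least 1 read numbered 28475 to 31007 in mTEChi and 28430 to 29306 in mTEClo, which overlapped (exact permutation p = 0.143). After thinning each library to the smallest total of the 8, they numbered 28464 to 29522 in mTEChi and 27051 to 28466 in mTEClo (exact permutation p = 0.0571), which a threshold of 0.05 does not pass.

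**Figure D2:**
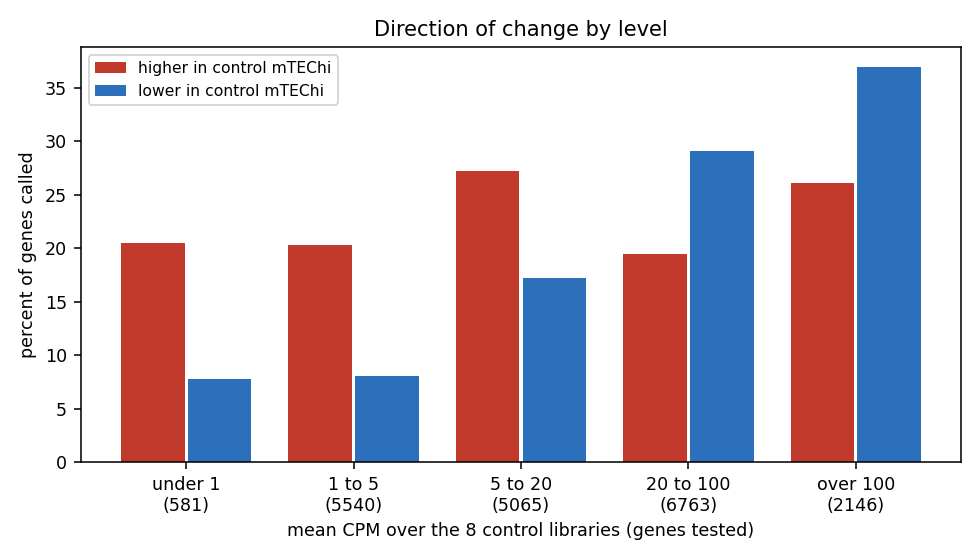
Percent of genes called higher (left bar) or lower (right bar) in control mTEChi, by mean CPM over the 8 control libraries, with the number of genes tested under each class. Higher calls outnumber lower calls in the 3 classes under 20 CPM, and lower calls outnumber higher calls in the 2 classes above it.

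Genes of MHC class II presentation were higher in mTEChi. Of 18 measured members of the list, 14 rose and 0 fell (22.4% and 20.5% over all genes), with a median log2 fold change of 1.87. The summed level of the list was 54783 to 57985 CPM in mTEChi and 9367 to 15875 CPM in mTEClo. As the gates are conventionally set on surface MHC class II, this is not an independent check of the sort. H2-Oa (GENCODE M21 on GRCm38, chromosome 17, 34092340 to 34095234), a chain of the peptide-loading regulator H2-O, was at 566, 602, 547 and 539 CPM in control mTEChi, against 95.6, 109, 125 and 133 CPM in control mTEClo. The groups lay far apart, and the log2 fold change was 2.28 (SE 0.11, adjusted p = 5.35e-11). H2-Ab1, the beta chain of the classical molecule I-A, was at 21341, 20565, 20143 and 20408 CPM in control mTEChi, against 3126, 4149, 4355 and 5574 CPM in control mTEClo (log2 fold change 2.26, SE 0.13). H2-Aa, its alpha chain, was at 8875, 9330.3, 8723 and 8590.4 CPM in control mTEChi, against 1425, 1979.6, 2070.4 and 2513 CPM in control mTEClo (log2 fold change 2.15, SE 0.13). In mTEClo both were lowest in replicate 1 and highest in replicate 4, as Aire was. Cd74, the invariant chain that guards the binding groove, was at 17487 ± 847 CPM in mTEChi and 3901 ± 854 CPM in mTEClo, and H2-Eb1 at 5233 ± 165 CPM in mTEChi and 1289.5 ± 225 CPM in mTEClo. Of the loading factors, H2-DMa was at 313 ± 20.1 CPM in mTEChi and 91.2 ± 16.5 CPM in mTEClo and H2-DMb2 at 710.2 ± 18.7 CPM in mTEChi and 146 ± 41.4 CPM in mTEClo. Ciita, the transcriptional coactivator of the class II genes, was at 401, 450.5, 446 and 369.9 CPM in control mTEChi, against 89.1, 101, 94.9 and 143 CPM in control mTEClo, a log2 fold change of 1.96 (SE 0.21). Ctss, the cathepsin that trims the invariant chain, was at 450 ± 23.1 CPM in mTEChi and 143 ± 17.5 CPM in mTEClo. Ctsl, the cathepsin used for this in cortical epithelium, was at 198 ± 38.2 CPM in mTEChi and 226 ± 86.1 CPM in mTEClo and did not pass (adjusted p = 0.541), nor did the protease gene Lgmn (means of 42.9 CPM in mTEChi and 39 CPM in mTEClo; adjusted p = 0.48).

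The promoters of these genes are shown because the class II genes moved together and share a known promoter element, the Y box, bound by the factor NF-Y. A search of RefSeq promoter windows (build GRCm38.p6, 250 bases before to 50 after the gene's start) for CTGATTGG on either strand found it in 4 of the 14 list members that had a window. Since 14 of 18 is under the share of members needed for a check over the list, no share is drawn from it; over all 27025 genes with a window the element was found in 4.70%. The letters are also found in 6 of 27 proliferation genes with a window. The windows of 3 matching genes follow, each from 5′ to 3′ along the gene, with the match in capitals. A match is a description and not a measured binding site.
H2-Oa (chr17:34092129-34092428, plus strand): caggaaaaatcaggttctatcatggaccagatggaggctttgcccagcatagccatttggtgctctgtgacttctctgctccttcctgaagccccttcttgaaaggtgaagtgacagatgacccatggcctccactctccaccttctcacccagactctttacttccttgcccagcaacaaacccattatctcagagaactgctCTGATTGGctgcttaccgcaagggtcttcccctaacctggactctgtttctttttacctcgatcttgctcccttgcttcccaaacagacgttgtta
H2-Aa (chr17:34287774-34288073, minus strand): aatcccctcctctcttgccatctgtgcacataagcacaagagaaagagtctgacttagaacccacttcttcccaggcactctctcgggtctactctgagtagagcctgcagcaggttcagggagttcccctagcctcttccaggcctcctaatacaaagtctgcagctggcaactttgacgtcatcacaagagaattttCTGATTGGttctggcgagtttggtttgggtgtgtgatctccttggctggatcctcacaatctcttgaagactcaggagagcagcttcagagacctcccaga
H2-Eb1 (chr17:34305617-34305916, plus strand): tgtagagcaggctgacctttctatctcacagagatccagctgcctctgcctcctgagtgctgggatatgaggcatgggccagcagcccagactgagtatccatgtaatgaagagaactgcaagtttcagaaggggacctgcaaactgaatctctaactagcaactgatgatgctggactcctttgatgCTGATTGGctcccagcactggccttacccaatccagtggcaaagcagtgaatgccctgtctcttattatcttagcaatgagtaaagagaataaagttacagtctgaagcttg
Counted from the RefSeq start of the gene, with negative positions upstream, the match begins at -46 in H2-Oa, -51 in H2-Aa and -62 in H2-Eb1. It thus lies upstream and close to that start in all 3. For H2-Oa the RefSeq start lies downstream of the GENCODE start given above, so the match is nearer to the GENCODE start.

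In the MHC class I list 9 of 15 members were higher and 0 lower (22.4% and 20.5% over all genes). The median log2 fold change was 0.40, and 7 to 11 members were higher over the alternative runs described below. B2m, the light chain, was at 8428 ± 442 CPM in mTEChi and 5833 ± 219.7 CPM in mTEClo (log2 fold change 0.53, SE 0.07), and the immunoproteasome gene Psmb8 at 492 ± 32.1 CPM in mTEChi and 331 ± 18.2 CPM in mTEClo. The heavy-chain genes H2-K1 (means of 7159 CPM in mTEChi and 7252 CPM in mTEClo; adjusted p = 0.914) and H2-D1 (means of 6990.2 CPM in mTEChi and 7210.1 CPM in mTEClo; adjusted p = 0.618) did not pass.

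Genes of the Aire stage rose together, 17 of 20 higher and 1 lower (22.4% and 20.5% over all genes). Their median log2 fold change was 1.75. Fezf2, a transcription factor that drives a further set of self antigens, was at 213, 218, 199 and 189.5 CPM in control mTEChi, against 71.2, 81.3, 80.2 and 108 CPM in control mTEClo (log2 fold change 1.27, SE 0.14, adjusted p = 1.23e-06). Among the costimulatory genes, Cd86 was at 95.1, 96.4, 107 and 119 CPM in control mTEChi, against 10.2, 16.4, 7.73 and 11 CPM in control mTEClo, without overlap and with a log2 fold change of 3.20 (SE 0.28). Cd80, the other ligand of CD28, was at 170.2 ± 11.6 CPM in mTEChi and 46.3 ± 7.33 CPM in mTEClo, and Cd40, a receptor that receives T-cell help, at 322 ± 16.3 CPM in mTEChi and 73.8 ± 28.2 CPM in mTEClo. Irf8, a transcription factor of the interferon regulatory family, was at 455 ± 46.5 CPM in mTEChi and 146 ± 29.9 CPM in mTEClo. Sgpp2, a sphingosine phosphate phosphatase gene, was the exception that fell, at 24 ± 3.27 CPM in mTEChi and 52 ± 8.06 CPM in mTEClo. Tnfaip2 (means of 69.5 CPM in mTEChi and 75.1 CPM in mTEClo) and the transcription factor gene Ikzf2 (means of 6.95 CPM in mTEChi and 5.06 CPM in mTEClo) did not pass. Class II genes, Cd80, Cd86, Cd40 and Irf8 are also expressed by dendritic and B cells, whose markers were higher in the same libraries (12 of 16 myeloid and dendritic and 8 of 10 B-cell markers, with their sums given further down); their part in these results was not tested.

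**Figure D3:**
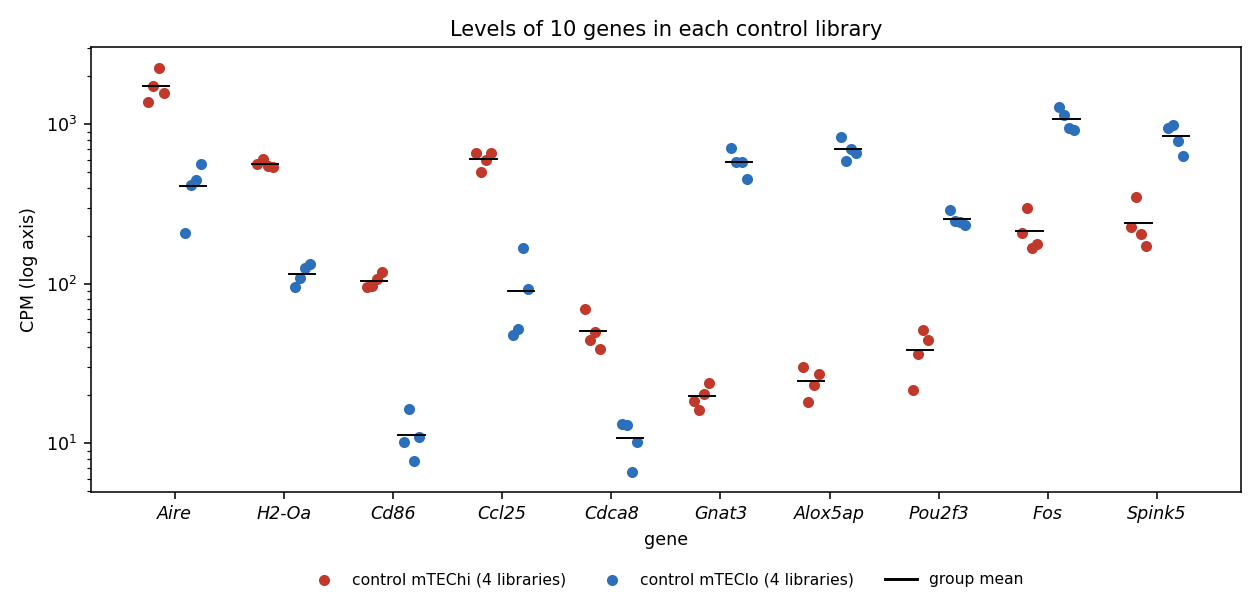
CPM on a log axis of 10 genes in each library, with control mTEChi left of control mTEClo for each gene and the group mean as a line. The 4 mTEChi points and the 4 mTEClo points do not overlap for any of these genes, and mTEChi are higher for the 5 genes on the left and lower for the 5 on the right.

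Genes of the NF-κB pathway downstream of RANK and CD40, receptors that drive mTEC maturation, were mostly higher. Of 20 members 16 rose and 3 fell (22.4% and 20.5% over all genes), with a median log2 fold change of 0.95. The inhibitor genes Nfkbia, at 2071 ± 87.9 CPM in mTEChi and 1002 ± 143 CPM in mTEClo, and Nfkbie, at 206 ± 7.04 CPM in mTEChi and 74.9 ± 13.5 CPM in mTEClo, are themselves targets of the pathway. Birc3, an inhibitor of apoptosis, was at 430.3 ± 31.8 CPM in mTEChi and 193 ± 29.9 CPM in mTEClo. The members that fell were Ltbr (means of 18.9 CPM in mTEChi and 40.2 CPM in mTEClo), Rela (means of 66.7 CPM in mTEChi and 93.7 CPM in mTEClo) and Tnfaip3 (means of 63.5 CPM in mTEChi and 163 CPM in mTEClo), which encode the lymphotoxin receptor, a canonical NF-κB subunit and a brake on the pathway. In the interferon list 7 of 20 were higher and 5 lower (22.4% and 20.5% over all genes; median log2 fold change 0.10), so its lower share was near that of all genes. Cxcl10, a chemokine induced by interferon, was at 264 ± 27.1 CPM in mTEChi and 72 ± 11.3 CPM in mTEClo and rose. The interferon regulator gene Irf7 fell and was at 123, 114, 137 and 152 CPM in control mTEChi, against 341, 345, 331 and 347 CPM in control mTEClo. Irf9, a further regulator, fell too, at 94.1 ± 9.43 CPM in mTEChi and 178 ± 32.4 CPM in mTEClo.

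Chemokine genes were higher in mTEChi, 16 of 20 tested and 0 lower (22.4% and 20.5% over all genes). Their median log2 fold change was 2.10. Xcl1, which attracts dendritic cells carrying XCR1, was at 29.1, 11.9, 16.2 and 8.12 CPM in control mTEChi, against 0, 0.156, 0 and 0 CPM in control mTEClo. It had 394 reads over the mTEChi libraries and 1 read over the mTEClo libraries, a ratio of 415 (95% interval 74.1 to 16451, counting error only; adjusted p = 1.9e-07 by edgeR). Ccl25, a ligand of CCR9 on thymocytes, was at 658, 502, 600.5 and 656 CPM in control mTEChi, against 47.7, 52, 168 and 92.5 CPM in control mTEClo, and its log2 fold change was 2.75 (SE 0.31). Ccl5 was at 305, 356, 408 and 353 CPM in control mTEChi, against 14.5, 71, 26.7 and 52.6 CPM in control mTEClo. Ccl22, a ligand of CCR4, was at 259, 238, 195 and 286 CPM in control mTEChi, against 22.2, 65.7, 16.8 and 39.4 CPM in control mTEClo. Neither overlapped between the subsets, and in mTEClo both were highest in replicate 2. Cxcl9 was at 118 ± 25.5 CPM in mTEChi and 18.7 ± 6.72 CPM in mTEClo and Ccl27a at 103 ± 14.3 CPM in mTEChi and 29 ± 2.77 CPM in mTEClo. Ccl20 (means of 218 CPM in mTEChi and 279.6 CPM in mTEClo) and Ccl9 (means of 115 CPM in mTEChi and 152 CPM in mTEClo) did not pass. Ccl21a, which marks immature mTECs and has near-identical copies in the mouse genome, is listed at 0 reads in all 8 libraries, for which the treatment of multimapping reads is not stated. The myeloid and dendritic markers described further down rose in the same libraries, and their part in the chemokine result was not tested.

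Proliferation genes were higher in mTEChi: 29 of 32 rose and 0 fell (22.4% and 20.5% over all genes). Their median log2 fold change was 1.82. The summed level was 1429 to 1872 CPM in mTEChi and 440.4 to 762 CPM in mTEClo. Cdca8, a subunit of the chromosomal passenger complex, was at 69.4, 44.2, 49.8 and 39.3 CPM in control mTEChi, against 13.3, 13.1, 6.67 and 10.1 CPM in control mTEClo (log2 fold change 2.22, SE 0.24, adjusted p = 1.33e-06). Its partner Birc5 was at 37.4, 25.6, 28.2 and 30.1 CPM in control mTEChi, against 5.44, 8.88, 5.00 and 7.06 CPM in control mTEClo. Cenpe, a kinetochore motor, was at 34.1 ± 8.61 CPM in mTEChi and 5.63 ± 2.72 CPM in mTEClo. Mki67, the gene of the Ki-67 antigen, was at 105, 65.5, 106 and 52.6 CPM in control mTEChi, against 8.43, 36.4, 10.5 and 10.4 CPM in control mTEClo; the mTEClo value of replicate 2 stood above the other mTEClo values and below every mTEChi value. Of the replication genes, Pcna (means of 55.8 CPM in mTEChi and 46.9 CPM in mTEClo; adjusted p = 0.176) and Mcm2 (means of 32.8 CPM in mTEChi and 30.4 CPM in mTEClo; adjusted p = 0.71) did not pass.

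Genes best known from cortical epithelium were also higher in mTEChi, 9 of 12 and 0 lower (22.4% and 20.5% over all genes). The median log2 fold change was 1.53, and 7 to 11 members were higher over the alternative runs. Foxn1, the master regulator of thymic epithelium, was at 150.4, 143, 169 and 149 CPM in control mTEChi, against 46.9, 55, 49.4 and 53.4 CPM in control mTEClo (log2 fold change 1.58, SE 0.16), and Tbata at 447 ± 29.7 CPM in mTEChi and 113 ± 32.3 CPM in mTEClo. Both defining cortical genes were measured, with the thymoproteasome gene Psmb11 at 7.24 ± 2.39 CPM in mTEChi and 1.91 ± 0.978 CPM in mTEClo (higher) and the thymus protease gene Prss16 at 70.3 ± 10.6 CPM in mTEChi and 44.6 ± 24 CPM in mTEClo (adjusted p = 0.0508). Of 12 tested genes of the immature, CCL21-type mTEC 5 were higher and 3 lower (22.4% and 20.5% over all genes). Krt14, a basal keratin, was at 304 ± 57.1 CPM in mTEChi and 118 ± 22.7 CPM in mTEClo and rose, as did the hemidesmosome gene Col17a1, at 94.7 ± 9.47 CPM in mTEChi and 24.9 ± 4.90 CPM in mTEClo. Ackr4, an atypical receptor that takes up chemokines, fell and was at 2.45, 3.20, 12 and 4.71 CPM in control mTEChi, against 65.9, 34, 40.0 and 26.5 CPM in control mTEClo. Krt5, the partner of Krt14, was at 152, 219.9, 135 and 171 CPM in control mTEChi, against 262, 269, 279 and 149.6 CPM in control mTEClo and did not pass (adjusted p = 0.145).

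Self antigens that depend on Aire in mouse mTECs were higher in mTEChi, 11 of 19 tested, with 1 lower. Over all genes 22.4% were higher and 20.5% lower. The median log2 fold change of the list was 2.20. Csn2, a milk casein, was at 1502, 1374, 1292 and 1549 CPM in control mTEChi, against 211, 303, 449 and 577 CPM in control mTEClo (log2 fold change 1.89, SE 0.23, adjusted p = 4.64e-06). Ins2, an insulin gene, was at 19.6, 15.2, 25.4 and 31.7 CPM in control mTEChi, against 5.71, 3.11, 3.49 and 7.64 CPM in control mTEClo. S100a8, a neutrophil protein, was at 433, 404, 328 and 411 CPM in control mTEChi, against 20.9, 67.6, 78.3 and 129 CPM in control mTEClo. In mTEClo, Csn2 and S100a8 were again lowest in replicate 1 and highest in replicate 4. Rptn, a cornified-layer protein, was the member that fell, at 505 ± 105 CPM in mTEChi and 743 ± 64.6 CPM in mTEClo, a call that was lost without mTEChi replicate 4. Tff3 (means of 59.6 CPM in mTEChi and 28.3 CPM in mTEClo) and Chrna1 (means of 25.6 CPM in mTEChi and 22.5 CPM in mTEClo) did not pass. Of 6 antigens ascribed to Fezf2, 4 rose, among them Fabp9 at 114 ± 18.1 CPM in mTEChi and 30.0 ± 7.74 CPM in mTEClo, and Krt10 fell, at 11 ± 3.52 CPM in mTEChi and 28.8 ± 7.24 CPM in mTEClo. Ttr was at 31.9 ± 6.18 CPM in mTEChi and 11.3 ± 7.65 CPM in mTEClo and did not pass (adjusted p = 0.0938), although its groups did not overlap.

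The 12 genes with the largest rise that were at 10 CPM or more and did not overlap were of mixed tissues: the chemokine gene Ccl12, the myeloid receptor gene Cd300ld, the X-linked homeobox gene Rhox12, Xcl1, Ldc1, the hair keratin gene Krt33b, the stomach gene Gkn2, the trypsinogen gene Prss1, the fetal liver gene Afp, the brain matrix gene Bcan, the fibrinogen gene Fga and the receptor gene Gpr83. Ccl12 was at 35.5, 0.941, 12.5 and 3.06 CPM in control mTEChi, against 0 CPM in all 4 libraries of control mTEClo. With no read in any mTEClo library it was at least 106-fold higher, set against 3 counts over the mTEClo group. Cd300ld was at 4.72, 15.4, 14.7 and 11.8 CPM in control mTEChi, against 0 CPM in all 4 libraries of control mTEClo, at least 107-fold higher by the same bound. The levels of several of these genes differed widely among the mTEChi libraries, with Afp at 14.5, 10.2, 2.55 and 53.1 CPM in mTEChi and Gpr83 at 5.85, 45.4, 13.1 and 2.12 CPM in mTEChi. Bcan was more even, at 14.5, 16, 20.7 and 21.1 CPM in control mTEChi, against 0.136, 0, 0.152 and 0.588 CPM in control mTEClo. Fga was at 33, 30.7, 23.3 and 18.4 CPM in control mTEChi, against 0.680, 0, 0.455 and 0.294 CPM in control mTEClo. For 4 further genes with 1 to 3 reads over the mTEClo libraries the level ratio is given with its 95% counting interval: 642 (115 to 25406) for Rhox12, 276 (49.2 to 10954) for Ldc1, 187 (63.8 to 911) for Krt33b and 162 (44.6 to 1347) for Gkn2. The intervals are wide because so few reads stand in mTEClo.

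Genes of the liver and pancreas followed the same direction, against 22.4% higher and 20.5% lower over all genes. Of 22 hepatocyte plasma protein genes tested, 16 were higher and 1 lower (2 lower without mTEChi replicate 1; median log2 fold change 1.95). Serpinc1, which encodes antithrombin, was at 65.3, 91.1, 69.3 and 86.6 CPM in control mTEChi, against 6.66, 16.2, 15 and 15.3 CPM in control mTEClo (log2 fold change 2.56, SE 0.23), and Trf, the iron carrier transferrin, at 526 ± 35.8 CPM in mTEChi and 144 ± 54.4 CPM in mTEClo. Hp (means of 74.3 CPM in mTEChi and 101 CPM in mTEClo) and Rbp4 (means of 13.2 CPM in mTEChi and 52.1 CPM in mTEClo) did not pass. Of 16 pancreatic genes tested, 8 were higher and 0 lower (6 to 10 higher over the alternative runs). Pyy, which encodes the gut and islet hormone PYY, was at 128, 93.7, 74.7 and 60.5 CPM in control mTEChi, against 2.04, 19, 2.73 and 3.67 CPM in control mTEClo. Gcg, which encodes glucagon, was at 40.4, 74, 37.4 and 51.3 CPM in control mTEChi, against 0.408, 7.79, 1.36 and 4.41 CPM in control mTEClo. Both were higher in every mTEChi library than in any mTEClo library, and in mTEClo replicate 2 held the highest value of each. Enterocyte genes were 13 of 29 higher and 3 lower. Cdh17, a gut cadherin, was at 234 ± 8.85 CPM in mTEChi and 89.2 ± 17.8 CPM in mTEClo, and the brush-border phospholipase gene Plb1 at 352 ± 20.5 CPM in mTEChi and 132 ± 48.1 CPM in mTEClo. Espn (means of 18.1 CPM in mTEChi and 169.5 CPM in mTEClo) and Cdhr2 (means of 32.6 CPM in mTEChi and 189 CPM in mTEClo), an actin bundler and an adhesion protein of microvilli, fell; Espn is in the tuft list as well. Vil1 (means of 66.2 CPM in mTEChi and 80.2 CPM in mTEClo) and Muc13 (means of 78.9 CPM in mTEChi and 60.8 CPM in mTEClo) did not pass.

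Tuft-cell genes were the list with the greatest share of lower members of the 31 lists. Tuft cells are chemosensory epithelial cells of gut and airway that use a taste-like cascade and release eicosanoids, acetylcholine and IL-25. Of 39 tested members 38 fell and 0 rose (20.5% and 22.4% over all genes), and the median log2 fold change was -3.59. All 39 had groups that did not overlap, against 40.6% of all genes tested. The summed level was 3111 to 3815 CPM in mTEChi and 24045 to 30951 CPM in mTEClo. Ffar3, a short-chain fatty acid receptor, was the member that did not pass, at 2.56 ± 1.03 CPM in mTEChi and 0.957 ± 0.464 CPM in mTEClo.

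In the taste cascade, Gnat3 (GENCODE M21 on GRCm38, chromosome 5, 17962549 to 18019834), the G-protein subunit gustducin, was at 18.5, 16.2, 20.6 and 23.8 CPM in control mTEChi, against 708, 580.3, 584 and 451 CPM in control mTEClo. The log2 fold change was -4.87 (SE 0.19, adjusted p = 5.27e-12). Trpm5, the channel that opens at the end of the cascade, was at 92.7, 66.1, 124 and 140.4 CPM in control mTEChi, against 2334, 1817, 2172 and 1738 CPM in control mTEClo (log2 fold change -4.25, SE 0.19). Among eicosanoid genes, Alox5ap (GENCODE M21 on GRCm38, chromosome 5, 149264767 to 149288153), the activator of 5-lipoxygenase, was at 30.2, 18.3, 23.1 and 27.2 CPM in control mTEChi, against 833, 585, 703 and 665 CPM in control mTEClo, with a log2 fold change of -4.81 (SE 0.18, adjusted p = 5.27e-12). Ptgs1, a prostaglandin synthase, was at 34.4 ± 4.79 CPM in mTEChi and 449.6 ± 73.5 CPM in mTEClo. Il25, a secreted cytokine, was at 0, 2.82, 2.40 and 1.53 CPM in control mTEChi, against 65.1, 52.8, 41.5 and 33.2 CPM in control mTEClo. Chat, the enzyme that makes acetylcholine, was at 17, 11.3, 24.6 and 26.8 CPM in control mTEChi, against 421, 299.8, 332 and 318 CPM in control mTEClo. Both were separated between the subsets, and Il25 had no read in mTEChi replicate 1. Structural and signalling members followed, with the microtubule kinase gene Dclk1 at 55.5 ± 7.13 CPM in mTEChi and 897 ± 97.5 CPM in mTEClo, the exchange factor gene Vav1 at 50.8 ± 11.7 CPM in mTEChi and 706 ± 86.8 CPM in mTEClo, the adaptor gene Fyb at 50.3 ± 7.44 CPM in mTEChi and 373 ± 36 CPM in mTEClo and the phosphatase gene Ptpn6 at 222 ± 16.7 CPM in mTEChi and 1166 ± 136 CPM in mTEClo; these last 3 are better known from blood cells. Pou2f3, the transcription factor that specifies tuft cells, was at 21.5, 36.5, 51.8 and 44.4 CPM in control mTEChi, against 289, 247, 246 and 234 CPM in control mTEClo (log2 fold change -2.71, SE 0.23). Its fold was smaller than those of Gnat3 and Alox5ap, a difference that was not tested.

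Bitter taste receptors of the Tas2r family fell as well. Of 35 family members in the table, 31 passed the filter on low counts, and 31 of these were lower and 0 higher in mTEChi. Most of them are near 0 in mTEChi and passed the filter through mTEClo, so this count is a description only. Their summed level was 18.4 to 42.1 CPM in mTEChi and 647 to 1264 CPM in mTEClo. Of the 12 genes with the largest fall at 10 CPM or more and without overlap, 11 were Tas2r genes and the other was Svet1. Tas2r105 was at 3.59, 0.565, 0.600 and 2.24 CPM in control mTEChi, against 129, 115, 102 and 72 CPM in control mTEClo. Tas2r118 was at 3.02, 4.33, 6.15 and 0.706 CPM in control mTEChi, against 178, 178, 156 and 68.8 CPM in control mTEClo. In mTEClo both were lowest in replicate 4, the library with the most Aire. Members of this family lie in clusters of close paralogs, so the split of reads among them is uncertain.

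The octamer ATGCAAAT, the element bound by POU-domain factors, was searched in the same windows. It was chosen because tuft genes and bitter receptors fell along with Pou2f3, whose control of them was not tested. It was found in 4 of 32 tuft genes with a window (12.5%), in 6 of 27 Tas2r genes (22.2%) and in 1.97% of all genes with a window. Paralogous receptors share ancestry and are not independent. In the 2 receptor windows printed below, the bases from the gene's start on begin with ATG, the start codon. The receptor share may therefore rest on windows before the coding start, unlike those of other genes, and no comparison of the shares is drawn. The windows of 2 tuft genes and 2 receptors that hold the octamer (or ATTTGCAT, its reverse complement) are given with the match in capitals.
Itpr3, the calcium-release channel of the taste cascade (chr17:27057054-27057353, plus strand): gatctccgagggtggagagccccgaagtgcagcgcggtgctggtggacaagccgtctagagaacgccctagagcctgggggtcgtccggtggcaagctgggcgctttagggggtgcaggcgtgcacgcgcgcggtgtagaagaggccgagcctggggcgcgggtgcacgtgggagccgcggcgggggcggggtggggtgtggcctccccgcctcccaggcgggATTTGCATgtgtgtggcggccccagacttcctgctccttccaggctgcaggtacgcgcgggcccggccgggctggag
Hpgds, a prostaglandin D synthase (chr6:65144681-65144980, minus strand): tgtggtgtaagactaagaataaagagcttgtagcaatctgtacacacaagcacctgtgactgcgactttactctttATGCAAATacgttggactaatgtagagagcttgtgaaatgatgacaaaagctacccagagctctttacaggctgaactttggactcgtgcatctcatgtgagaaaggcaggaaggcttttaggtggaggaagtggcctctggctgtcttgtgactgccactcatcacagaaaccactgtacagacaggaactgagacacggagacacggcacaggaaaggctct
Tas2r126 (chr6:42434285-42434584, plus strand): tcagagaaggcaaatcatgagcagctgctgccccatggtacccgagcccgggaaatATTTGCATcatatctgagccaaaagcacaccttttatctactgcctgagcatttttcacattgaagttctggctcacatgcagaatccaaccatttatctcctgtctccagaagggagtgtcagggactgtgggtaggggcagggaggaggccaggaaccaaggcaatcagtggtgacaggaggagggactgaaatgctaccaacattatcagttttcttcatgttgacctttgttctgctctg
Tas2r135 (chr6:42405279-42405578, plus strand): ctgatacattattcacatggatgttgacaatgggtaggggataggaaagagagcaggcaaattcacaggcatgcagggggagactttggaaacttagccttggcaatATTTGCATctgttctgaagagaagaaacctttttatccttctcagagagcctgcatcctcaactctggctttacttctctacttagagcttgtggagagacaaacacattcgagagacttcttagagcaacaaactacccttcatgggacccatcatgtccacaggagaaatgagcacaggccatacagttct
Of the genes behind these windows, Itpr3 was at 88.1 ± 6.94 CPM in mTEChi and 183 ± 32.7 CPM in mTEClo, and Hpgds at 43 ± 7.56 CPM in mTEChi and 173 ± 21.7 CPM in mTEClo. Tas2r126 was at 0.377, 1.51, 0.450 and 1.06 CPM in control mTEChi, against 60.0, 88.1, 76.8 and 36.3 CPM in control mTEClo. Tas2r135 was at 0.377, 0.753, 0 and 0 CPM in control mTEChi, against 23.4, 19.6, 16.2 and 15.1 CPM in control mTEClo. All 4 fell without overlap.

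Keratinocyte genes were mostly lower as well, against 20.5% lower and 22.4% higher over all genes. Of 27 keratinocyte genes tested 16 fell and 3 rose (median log2 fold change -1.01). Over the alternative runs 13 to 17 of the list were lower. Spink5, a protease inhibitor of the upper epidermis, was at 228, 348, 206 and 174 CPM in control mTEChi, against 949, 994, 789 and 629 CPM in control mTEClo (log2 fold change -1.82, SE 0.20). Krt1, a keratin of suprabasal skin, was at 2.45, 1.88, 4.35 and 1.77 CPM in control mTEChi, against 14.5, 29.6, 21.5 and 12.3 CPM in control mTEClo. Neither gene overlapped between the subsets. Dmkn, a secreted skin protein, was at 148 ± 20.4 CPM in mTEChi and 436 ± 80.8 CPM in mTEClo. Asprv1 (means of 357 CPM in mTEChi and 427 CPM in mTEClo) and Cst6 (means of 163 CPM in mTEChi and 222 CPM in mTEClo) did not pass. Ciliated genes were 13 of 26 lower and 5 higher (3 higher without mTEChi replicate 2, and 3 without mTEClo replicate 3). Tppp3, a tubulin-binding gene, fell and was at 29.2, 59.1, 28.1 and 56.1 CPM in control mTEChi, against 144, 96.6, 150.5 and 162 CPM in control mTEClo. Rsph1, a radial-spoke gene, fell and was at 23.6, 24.1, 12.3 and 20.8 CPM in control mTEChi, against 47.7, 37.7, 61.1 and 46.4 CPM in control mTEClo. Dnaic2, a dynein intermediate chain gene, rose and was at 112, 112, 116 and 124 CPM in control mTEChi, against 47, 48.7, 39.4 and 56 CPM in control mTEClo. None of these genes overlapped between the subsets.

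Over all genes 22.4% were higher and 20.5% lower, and the neuroendocrine and microfold lists had shares near these. Neuroendocrine genes were 5 of 25 higher and 6 lower. Chgb, a secretory granule gene, fell and was at 30.4, 27.3, 14.3 and 32.2 CPM in control mTEChi, against 180.3, 339, 46.5 and 99.5 CPM in control mTEClo, widely spread among the mTEClo libraries. Calca, which encodes calcitonin, rose and was at 197, 167, 237 and 225 CPM in control mTEChi, against 36, 58.4, 102 and 63.2 CPM in control mTEClo. Muscle genes were 8 of 23 higher and 3 lower, against 11 higher and 1 lower with limma-voom. Myog, the regulator of muscle differentiation, fell and was at 37.7, 44.8, 38.3 and 32.6 CPM in control mTEChi, against 128, 207, 161 and 145 CPM in control mTEClo. Tnni1, a troponin gene of slow muscle, rose and was at 78.7, 36, 79.4 and 75.7 CPM in control mTEChi, against 9.38, 12, 18.3 and 17.5 CPM in control mTEClo. Ttn, which encodes the sarcomere spring titin, rose and was at 199, 186, 266 and 187 CPM in control mTEChi, against 59.6, 109, 107 and 111 CPM in control mTEClo. Myog thus moved in the opposite direction to Tnni1 and Ttn. Of the 23 muscle genes 12 did not pass. Among them, Mylpf was at means of 33.1 CPM in mTEChi and 26.2 CPM in mTEClo. Atp2a1 was at means of 25.6 CPM in mTEChi and 25 CPM in mTEClo. Airway and goblet genes were 7 of 23 higher and 9 lower, with the mucus gene Fcgbp at 4268 ± 671 CPM in mTEChi and 1807 ± 169.7 CPM in mTEClo (higher) and the goblet regulator gene Spdef at 9.32 ± 3.59 CPM in mTEChi and 30.0 ± 5.65 CPM in mTEClo (lower). Microfold genes were 4 of 15 higher and 3 lower (2 higher without mTEClo replicate 1). Spib, the microfold transcription factor, fell and was at 275, 447, 322 and 300.4 CPM in control mTEChi, against 759, 679, 814 and 694 CPM in control mTEClo. Gp2, the receptor by which microfold cells take up bacteria, fell and was at 445, 1066, 1316 and 991 CPM in control mTEChi, against 1754, 1732, 2601 and 1858 CPM in control mTEClo. Anxa10 of the same list rose, at 175 ± 10.4 CPM in mTEChi and 60.2 ± 21.9 CPM in mTEClo. So did Marcksl1, at 200 ± 8.90 CPM in mTEChi and 121 ± 14.3 CPM in mTEClo. Ccl9, Ccl20 and Pglyrp1 of that list did not pass.

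Of 28 tested regulators of mimetic lineages 9 were lower and 8 higher (20.5% and 22.4% over all genes). Pou2f3, Gfi1b, Spib and Myog were among the lower ones. Hnf4a and Hnf4g did not pass. Grhl1 (means of 72.8 CPM in mTEChi and 90.7 CPM in mTEClo) and Foxj1 (means of 22.3 CPM in mTEChi and 30.8 CPM in mTEClo) did not pass either. Among general regulators of mTECs 10 of 25 were higher and 6 lower. Elf3, an epithelial ETS factor, fell and was at 198, 213, 179 and 199 CPM in control mTEChi, against 792, 656, 709 and 709 CPM in control mTEClo (log2 fold change -1.86, SE 0.09). Ehf, of the same family, fell too, at 133 ± 8.10 CPM in mTEChi and 526 ± 48.4 CPM in mTEClo, and so did the factor gene Klf4, at 40.0 ± 4.41 CPM in mTEChi and 142 ± 6.16 CPM in mTEClo. Sirt1, a deacetylase that acts on AIRE in mouse, was at 323, 230.2, 261 and 241 CPM in control mTEChi, against 48.5, 50.3, 44.9 and 66.1 CPM in control mTEClo and rose (log2 fold change 2.33, SE 0.17). Hdac3 (means of 111 CPM in mTEChi and 119 CPM in mTEClo; adjusted p = 0.372) did not pass. Krt19, a simple-epithelium keratin gene, fell and was at 83.8, 77.6, 47.1 and 107 CPM in control mTEChi, against 672, 647, 631 and 470.4 CPM in control mTEClo. Krt18, another, fell and was at 1531 ± 167 CPM in mTEChi and 3292 ± 177 CPM in mTEClo. In the identity list as a whole 3 of 14 were higher and 7 lower.

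**Figure D4:**
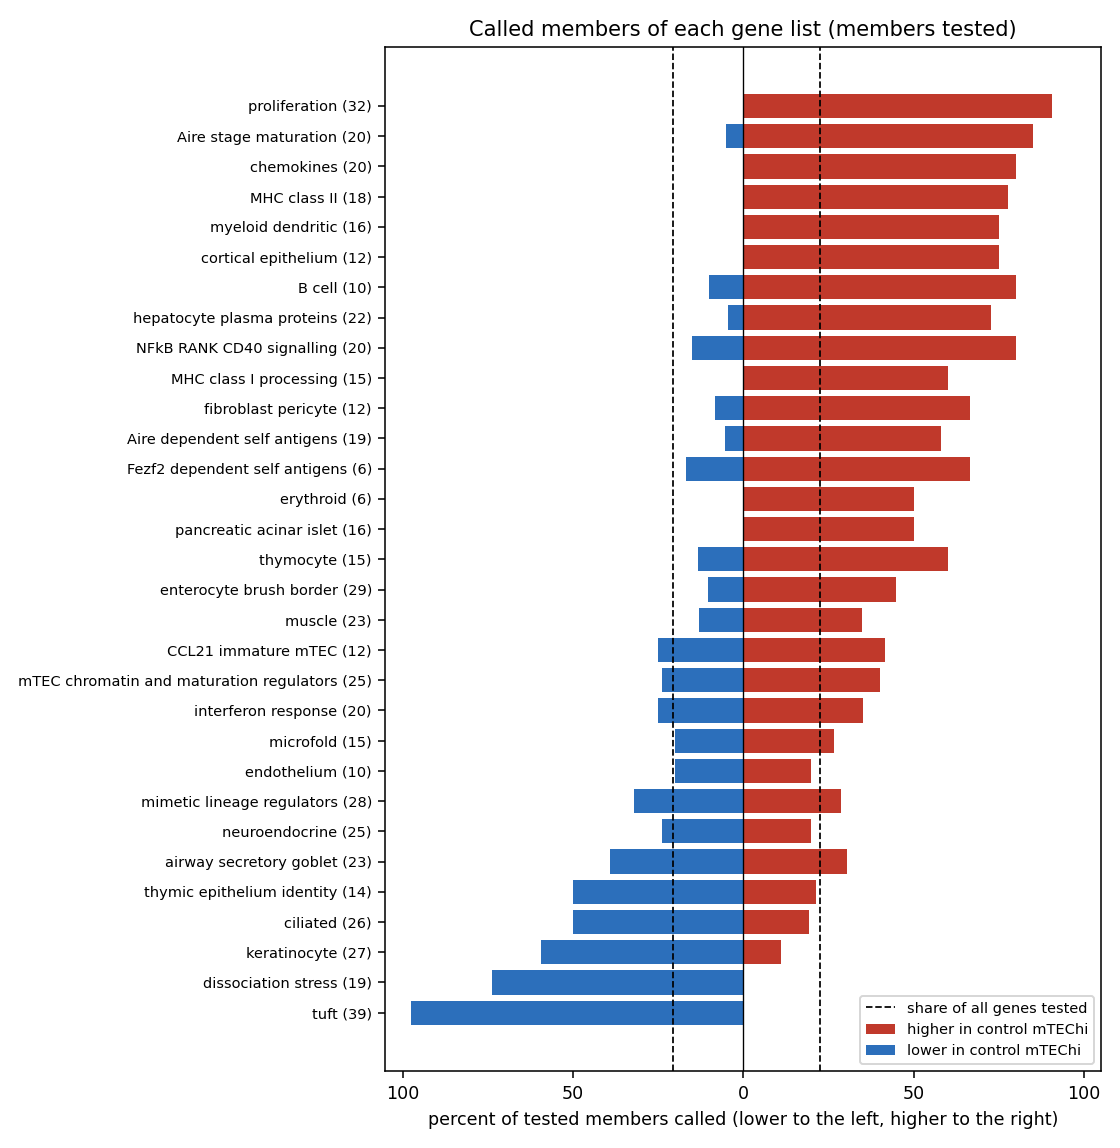
Percent of tested members called lower (left of 0) and higher (right of 0) in control mTEChi for each of the 31 gene lists, with the number of members tested in brackets and the shares of all genes tested (20.5% lower, 22.4% higher) as dashed lines. Tuft and dissociation stress lie at the lower end and proliferation and Aire stage at the upper end.

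Genes induced by tissue dissociation moved with the subset. Of 19 members 14 were lower and 0 higher in mTEChi (20.5% and 22.4% over all genes). Their summed level was 2335 to 3284 CPM in mTEChi and 5357 to 6242 CPM in mTEClo. Fos, an immediate early gene, was at 209, 300.3, 168 and 178 CPM in control mTEChi, against 1283, 1148, 944 and 925 CPM in control mTEClo. Btg2, an antiproliferative early gene, was at 161, 173, 158 and 161 CPM in control mTEChi, against 713, 647, 562 and 652 CPM in control mTEClo. Both lay far apart between the subsets. Hspa1a (means of 223 CPM in mTEChi and 219 CPM in mTEClo) did not pass. Their part in the lower tuft and keratinocyte genes was not tested.

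Markers of blood cells and fibroblasts were mostly higher in mTEChi, against 22.4% higher and 20.5% lower over all genes. Of 15 thymocyte markers tested 9 rose and 2 fell, with a summed level of the list of 141 to 178 CPM in mTEChi and 71.7 to 97.3 CPM in mTEClo. Cd3d, a T-cell receptor subunit gene, was at 2.45, 6.78, 3.15 and 3.77 CPM in control mTEChi, against 0.136, 0.467, 0.303 and 0.294 CPM in control mTEClo, and Tcf7 at 54.9 ± 5.87 CPM in mTEChi and 11.5 ± 4.36 CPM in mTEClo. Themis fell (2.91 ± 2.02 CPM in mTEChi and 25.7 ± 8.98 CPM in mTEClo), and so did Ptprc, which encodes the pan-blood marker CD45, at 19.2, 15.8, 18.5 and 13.1 CPM in control mTEChi, against 34.1, 19.2, 20.6 and 32.8 CPM in control mTEClo. Without mTEChi replicate 2, 5 thymocyte markers rose, and 1 in place of 2 fell without mTEChi replicate 4, mTEClo replicate 1 or mTEClo replicate 4. Of 16 myeloid and dendritic markers 12 rose and 0 fell (1456 to 1929.6 CPM in mTEChi, 441 to 724 CPM in mTEClo), with Lyz2 at 1312, 1115, 1214 and 1610.2 CPM in control mTEChi, against 310.1, 359, 461 and 565 CPM in control mTEClo. Lyz2 alone made up most of that sum. Of 10 B-cell markers 8 rose and 1 fell (808 to 852 CPM in mTEChi, 425 to 528 CPM in mTEClo). A large part of that sum was Blnk, at 388 ± 27.5 CPM in mTEChi and 199 ± 13.7 CPM in mTEClo. Of 12 fibroblast and pericyte markers tested 8 rose and 1 fell (768 to 865 CPM in mTEChi, 149 to 292 CPM in mTEClo), with Dcn at 95.8 ± 25.9 CPM in mTEChi and 7.83 ± 6.42 CPM in mTEClo and Col1a1 at 68.3 ± 13.7 CPM in mTEChi and 6.49 ± 3.69 CPM in mTEClo. A large part of this sum was Rgs5, at 475 ± 78.1 CPM in mTEChi and 132 ± 37.5 CPM in mTEClo.
Endothelial markers were 2 of 10 higher and 2 lower, near the shares over all genes (22.4% and 20.5%), at sums of 137 to 200.0 CPM in mTEChi and 229 to 259 CPM in mTEClo. Erythroid markers were 3 of 6 higher and 0 lower, at sums of 36.4 to 50.1 CPM in mTEChi and 16.4 to 43.9 CPM in mTEClo; Hbb-bt was at 0 in all mTEClo libraries. No other member of these lists was at 0 in all libraries of a subset. The part of other cells in the self-antigen results was not tested.

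The subset difference was then read in the double-mutant libraries, which share no library with the control comparison but share its estimate of spread and its split by submission. There 5574 genes were higher (27.7%) and 4633 lower (23.1%). Of the 4496 genes higher in control mTEChi, 3776 were also higher in double-mutant mTEChi, 84% of the control list and 67.7% of the double-mutant list. Of the 4125 lower genes 3346 were shared, 81.1% of the control list and 72.2% of the double-mutant list. Calls in opposite directions numbered 2 and 1. Aire had a log2 fold change of 3.31 (SE 0.26) in double mutants and 2.08 (SE 0.25) in controls, Gnat3 -4.14 (SE 0.18) in double mutants and -4.87 (SE 0.19) in controls. The tuft list had 38 of 39 lower there too, the proliferation list 31 of 32 higher, and the MHC class II list 14 of 18 higher and 1 lower. The ciliated list, with 4 of 26 lower and 5 higher, had fewer lower calls than in controls, and the difference of these counts was not tested. A test of the difference between the 2 subset effects passed for 12 of 20095 genes, with 2298 at an unadjusted p under 0.05.

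**Figure D5:**
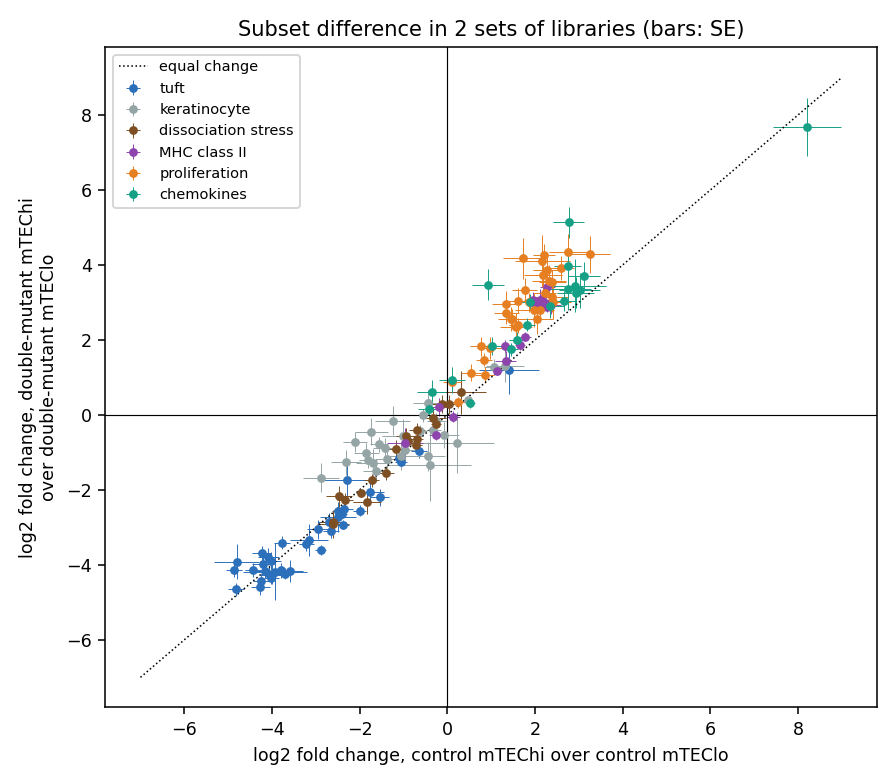
Log2 fold change of double-mutant mTEChi over double-mutant mTEClo (vertical axis) against that of control mTEChi over control mTEClo (horizontal axis) for the tested members of 6 lists, with SE bars and a dotted line of equal change. Tuft and dissociation stress members lie near the line, and many proliferation and chemokine members lie above it.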

How the data were processed

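Sorted mouse mTECs were profiled by bulk RNA-seq from 1000 cells per library, with oligo(dT) priming, Tn5 fragmentation, 18 PCR cycles and paired reads of 38 bases, per the labels' protocols. The deposited table holds raw read counts per gene symbol (55011 symbols, 28 libraries, 0 columns without a sample). The submitters' processing notes name STAR 2.7.3a, featureCounts and mm10; they do not state the annotation or the strand and multimapping settings. There were no molecular identifiers, so intervals and floors cover counting error only. Depth was 5344084 to 8342583 counts in control mTEChi and 6407618 to 7445874 in control mTEClo.

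The deposited counts were tested with edgeR 4.0.16 (R 4.3.3; quasi-likelihood test, TMM, filterByExpr with minimum count 10 and minimum total 15) in 1 fit of 16 libraries, control and double-mutant mTEChi and mTEClo. Benjamini-Hochberg adjustment ran over 20095 genes, with calls at 0.05. CPM are on TMM-scaled libraries, and SE are on the log2 scale. The labels number the thymi without saying that each is another animal, so that p-values reflect only the spread among libraries, which may be technical. Replicates differed beyond sampling noise (chi-square per degree of freedom 8.12 to 12.6). Alternatives were RLE scaling, no filter, DESeq2 1.42.0, limma-voom 3.58.1, a fit of 8 libraries, a replicate block and leaving out each library. On counts simulated for this comparison (19474 genes), 34% of 2-fold and 72.7% of 4-fold changes were recovered. Only 97 tested genes changed 2-fold and 99 changed 4-fold there, while 8621 genes were called in the data. The adjusted threshold is stricter when fewer genes change, so these shares do not measure recovery in the data.

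The comparison, the gene lists and the tests were chosen with earlier results of these data known. Named genes were Aire, Hnf4a, Hnf4g, Gnat3, Alox5ap and H2-Oa; the 12 called genes of largest fold in each direction at 10 CPM or more without overlap, leaving out unnamed models and pseudogenes; and in each list the called members of smallest p (up to 8 for tuft, MHC class II and Aire stage, otherwise 4) and the 2 most abundant not called. Other genes named were chosen after their values were seen. Gene positions are from GENCODE M21 (GRCm38), which held 53009 of the symbols, and promoter sequences from RefSeq. Some genes of these lists are not reported here.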

Additional observations from a re-analysis of the deposited data

Results flagged for a closer look

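20 of 416 groups of 4 libraries had a library far from the other 3 by Dixon's test on log2(CPM + 0.5), near the 1 in 20 that chance gives. In control mTEClo replicate 4, the library with the most Aire, levels were low for the bitter receptors Tas2r102 (12.3 CPM), Tas2r134 (8.67), Tas2r115 (34.4) and Tas2r118 (68.8), for Krt5 (150 CPM) and for Ehf (454), and high for Cldn4 (326) and the endothelial marker Eng (2.20). In control mTEClo replicate 1, the library with the least Aire, levels were low for Serpinc1 (6.66 CPM), Ttn (59.6), Mylpf (8.43) and Ccl27a (24.9). In control mTEChi, replicate 2 was low for Coch (100 CPM) and Tnni1 (36.0), replicate 1 high for Plb1 (382), and replicate 4 held the reads of Tas2r102 (0.706 CPM) and Tas2r134 (0.589), which had none in the other 3. The others stand on 1 read in an mTEClo library, Rhox12 and Ldc1 in replicate 3 (0.152 CPM each) and Xcl1 in replicate 2 (0.156 CPM).

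The subset effect differed between double mutants and controls for 2 named genes, by the interaction test adjusted over all genes. The log2 difference was 0.874 for H2-Eb1 and 2.07 for Birc5, both larger in double mutants.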

How the results depend on the processing

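Of 150 called genes among the 208 named by rule, 147 kept direction and call under each alternative run, which is partly a matter of their choice by small p. Ccl12, Hba-a2 and Hbb-bt did so in every fit that tested them and were below the count filter in the fit of the 8 control libraries and in that fit with the replicate block. Rptn, named outside the rule, lost its call without control mTEChi replicate 4. Called genes numbered 4815 higher and 3720 lower with RLE scaling, 5117 and 3939 with DESeq2, 4846 and 4265 with limma-voom, 4625 and 3899 without a filter, and 4148 and 3791 in the fit of the 8 control libraries. Leaving out a library gave 3769 to 4437 higher and 3601 to 3968 lower, against 4496 and 4125. Requiring a log2 fold change over 1 in size, an alternative chosen after seeing the data, left 3371 higher and 2008 lower; this follows from its construction. RLE moved the median log2 fold change to 0.091, and the higher share of calls to 56.4% against 52.2%. Over these alternatives tuft stayed at 38 lower, proliferation at 28 to 30 higher, chemokines at 16 to 17 higher and MHC class II at 14 higher, while thymocyte markers ranged from 5 to 9 higher and erythroid markers from 1 to 4. Muscle genes ranged from 7 to 11 higher and from 1 to 3 lower, with 1 lower by limma-voom and by the block, and hepatocyte genes from 1 to 2 lower. Groups share replicate numbers, and no pairing by number was apparent. Deviations of same-numbered libraries correlated at 0.00945 to 0.0276, and those of differently numbered libraries at -0.0291 to 0.0235. Of 4 mTEChi libraries 2 correlated best with their own number. Correlations this near 0 cannot settle whether same-numbered libraries are paired. With the replicate number as a block 3924 genes were higher and 3516 lower. In the simulation, where far fewer genes changed than were called here, 34% of 2-fold changes passed, a share that does not carry over to the data. A gene that missed the threshold is not shown to be level.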

Other observations

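Gene families were also grouped by symbol prefix, taking those with at least 15 tested members, and the ones given here were chosen after their values were seen; over all genes 22.4% were higher and 20.5% lower. Beta-defensins (Defb), antimicrobial peptides of epididymis and epithelia, were higher in control mTEChi for 11 of 16 members and lower for 0, with a median log2 fold change of 2.77. Late cornified envelope genes (Lce) were higher for 10 of 16 and lower for 0 (median 3.23), although 16 of 27 keratinocyte genes were lower in the same libraries. Carboxylesterases (Ces) were higher for 10 of 18 and collagens (Col) for 24 of 45, with 4 collagens lower. Intraflagellar transport genes (Ift) were lower for 6 of 15 and higher for 0. Genes with the prefix Mapk, which need not all encode kinases, were lower for 9 of 18 and higher for 1. Close paralogs in these families share sequence, so the split of reads among them is uncertain.

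Calls were also counted by class of gene, with no test of the differences. Of 16495 protein-coding genes 23.5% were higher and 21.7% lower in mTEChi. Of 371 genes not in the annotation used 23.4% were higher and 16.7% lower, and of 593 pseudogenes 17.7% were higher and 12.3% lower. Of the 2636 remaining genes 16.5% were higher and 15.6% lower. This last class holds noncoding genes and also immunoglobulin genes such as Ighm.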
